A study of Mus musculus with 2 samples.

Results

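The gene set described here holds 9 genes that place leukocytes in the body: the transcription factor Klf2, the sphingosine 1-phosphate receptor S1pr1, the chemokine receptors Ccr7, Ccr9, Ccr2, Cxcr4 and Cx3cr1, and the integrin chains Itgb7 and Itga4. They were chosen by symbol, and each of the 9 symbols matched a single entry among the 27998 genes of both count tables. Single-cell RNA profiles came from hindlimb muscle of mice, from which cells positive for YFP and negative for CD11b were sorted and captured in droplets (10x Genomics). One library was taken 28 days after hindlimb ischemia surgery and the other from animals without surgery (day 0). All animals carried Fsp1-Cre and the R26R-EYFP reporter, so that use of the Fsp1 (S100a4) promoter switches YFP on for good, also in all later daughter cells. Any cell whose ancestor used that promoter is therefore labelled, leukocytes included. The sources used here give neither the age or number of the animals nor whether several were pooled. Each group had 1 library, so no comparison of day 28 with day 0 has a replicate check and no test between them was possible. Intervals are exact 95% intervals of counting error.

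Leukocytes move between blood, marrow, lymphoid organs and tissue by reading chemical gradients and by gripping the vessel wall. Klf2 is a zinc-finger factor that holds lymphocytes at rest and, in mouse T cells, switches on S1pr1, the receptor that leads lymphocytes out of lymphoid organs toward the sphingosine 1-phosphate of blood and lymph. Chemokine receptors read ligands made at particular sites: Ccr7 reads the ligands of lymph node T zones, Ccr9 reads Ccl25 of thymus and small intestine, Ccr2 reads Ccl2, Cx3cr1 reads Cx3cl1 and Cxcr4 reads Cxcl12 of marrow stroma. Itga4 pairs with Itgb7 to bind Madcam1 on gut vessels, or with another beta chain to bind Vcam1.

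The day 28 library held 2653 barcodes with a median of 12265 UMIs (unique molecular identifiers, each standing for 1 captured RNA), and the day 0 library 2668 barcodes with a median of 4844, where the design text states 5000 captured cells. After filtering, 2580 and 2609 cells remained, and 13 barcodes occurred in both libraries. The cells formed 21 clusters, built without the 9 genes and named from marker lists. They were mostly blood and marrow types, and Myf5, Myod1 and Myog, which define muscle precursors, had 0 UMIs in both libraries. Of the 10 genes in the skeletal muscle or satellite cell list, 5 were found at day 28 and 6 at day 0. The list summed to 6.17 and 19.1 CPM. Naive T-like cells numbered 12 at day 28 and 548 at day 0, mature B-like cells 18 and 315, and activated helper T-like cells 23 and 291. Neutrophil progenitor-like cells numbered 709 at day 28 and 145 at day 0. The 8 classes with at least 50 cells in each library were compared between the days, on UMIs summed over the cells of a class and scaled to CPM (counts per 1000000). One of these, cluster 4, stayed unnamed and was led by Ms4a6c, Cd7, Plbd1 and Cd209a. Between 5838 and 6949 genes reached a mean of 10 CPM in a class. Their median log2 ratio of day 28 over day 0 lay between -0.23 and -0.11 in 7 classes and was 0.05 in erythroid-like cells.

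**Figure D1:**
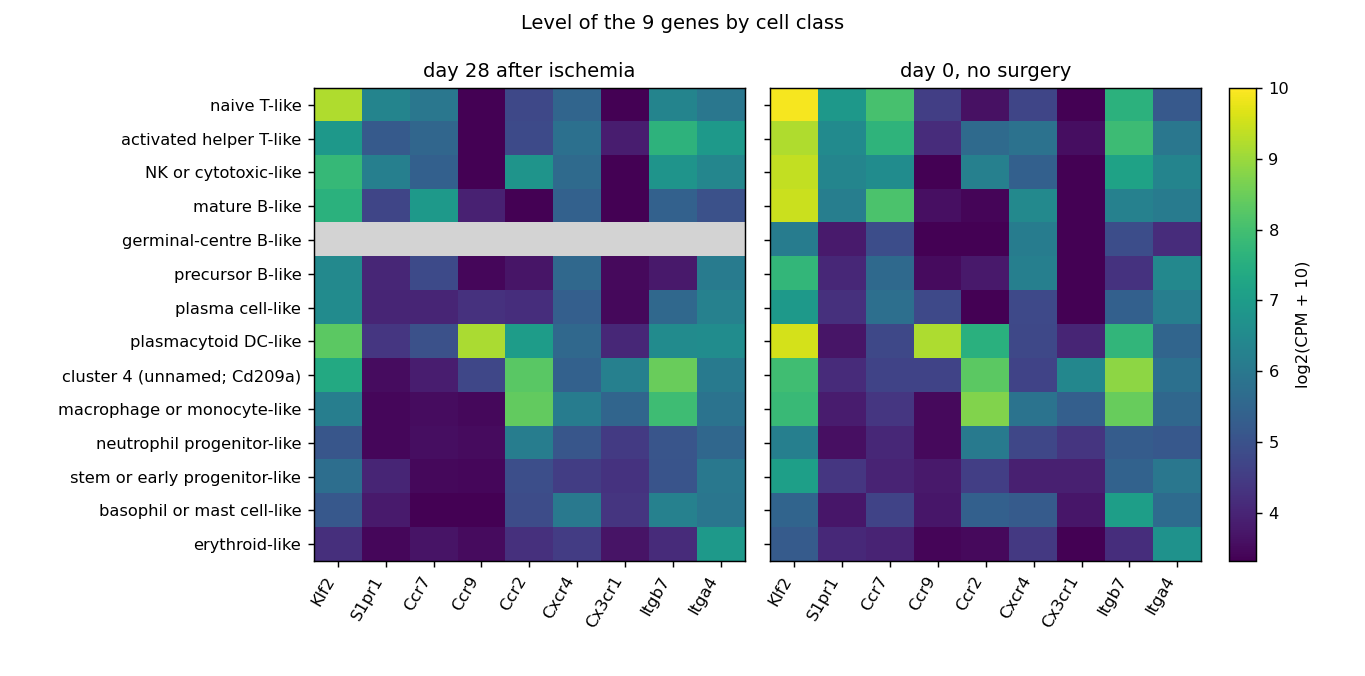
Level of the 9 genes in 14 cell classes, as log2(CPM + 10) of summed UMIs, with the day 28 library on the left and the day 0 library on the right; grey marks a class with under 10 cells. The T, NK and mature B-like rows carry Klf2, S1pr1 and Ccr7, the plasmacytoid row carries Klf2 and Ccr9, and the monocyte-like and cluster 4 rows carry Ccr2, Cx3cr1 and Itgb7. At day 0 the T-like and plasmacytoid rows carry Itgb7 as well. The day 28 rows of naive T, helper T and mature B-like cells rest on 12, 23 and 18 cells.

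The stretches just before the start sites of Klf2, Itgb7 and Itga4 are shown because Klf2 encodes the regulator of the set, Itgb7 stood below its day 0 level in every class where it was measured, and Itga4 did not. Each is the 250 bases before the RefSeq start, written 5′ to 3′ along the gene, on GRCm38.p6. That start can differ from the gene start of the GENCODE annotation used for the gene coordinates below. The Klf2 window runs to 72319061, past the GENCODE gene start of 72319033. On the minus strand, the Itgb7 window runs to 102231936, past the GENCODE gene start of 102231944. Capitals mark CACCC, the core of the boxes that Klf factors bind, and its reverse complement GGGTG.
Klf2, chr8:72318812-72319061, plus strand: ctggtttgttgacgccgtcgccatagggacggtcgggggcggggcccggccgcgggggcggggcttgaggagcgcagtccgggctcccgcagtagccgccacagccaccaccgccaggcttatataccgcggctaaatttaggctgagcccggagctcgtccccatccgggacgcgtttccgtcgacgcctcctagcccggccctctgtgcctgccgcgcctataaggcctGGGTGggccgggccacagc
Itgb7, chr15:102231936-102232185, minus strand: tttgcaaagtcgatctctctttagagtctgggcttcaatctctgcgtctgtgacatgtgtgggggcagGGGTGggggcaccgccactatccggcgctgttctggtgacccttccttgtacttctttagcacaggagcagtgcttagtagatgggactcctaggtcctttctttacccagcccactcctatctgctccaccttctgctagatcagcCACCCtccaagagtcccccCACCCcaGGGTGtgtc
Itga4, chr2:79255176-79255425, plus strand: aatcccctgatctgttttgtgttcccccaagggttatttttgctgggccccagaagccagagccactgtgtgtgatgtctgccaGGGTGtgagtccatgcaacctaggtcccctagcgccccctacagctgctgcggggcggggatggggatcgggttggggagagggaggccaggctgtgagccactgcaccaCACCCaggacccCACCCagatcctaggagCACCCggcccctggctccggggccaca

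The motif occurred at 4 places before the RefSeq start of Itgb7 (beginning 182, 35, 16 and 9 bases before it). It occurred at 4 before Itga4 (166, 56, 44 and 27 bases) and at 1 before Klf2 (19 bases). The Klf2 match and the Itgb7 match at 9 bases lie inside the genes as GENCODE places them. Of 32851 such windows in the table, 52.0% held it at least once and 21.1% at 2 or more places. Among the other members in the table it occurred at 1 place before each of Ccr9, Cxcr4 and Cx3cr1 and at none before Ccr2. The Ccr9 and Cx3cr1 windows, and most of the Ccr2 window, lie inside the GENCODE genes, because the RefSeq starts differ. The GC box CCCGCC, searched on both strands as well, occurred at 3 places before Cxcr4, at 2 before Klf2 and at 1 before Itga4, and 32.5% of all windows held it at least once. No CACCC match overlapped a CCCGCC match. A letter match is a description and marks no binding. Itgb7 and Itga4 carried the same number of CACCC matches. In the classes where both were measured, their ratios between the days lay on opposite sides of 1. Both intervals excluded 1 only in monocyte-like and plasmacytoid cells. In stem-like and NK or cytotoxic-like cells Itga4 had 1.01 (0.77 to 1.33) and 1.03 (0.64 to 1.63). Any part of the motif in these ratios was not tested.

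Klf2 (ENSMUSG00000055148, chromosome 8, 72319033 to 72321656, mm10) was lowest in erythroid-like cells in both libraries, and it was lower at day 28 in all 8 classes compared. Of the classes with at least 50 cells at day 0, T, NK or cytotoxic, mature B and plasmacytoid dendritic-like cells had the highest levels. Among the classes with at least 50 cells, the order at day 28 was led by plasmacytoid dendritic-like cells at 309 CPM, NK or cytotoxic-like cells at 213 and cluster 4 at 158, each step beyond counting error. At day 0 Klf2 reached 944 CPM in naive T-like cells, 744 in plasmacytoid dendritic-like cells, 702 in mature B-like cells, 654 in NK or cytotoxic-like cells and 583 in activated helper T-like cells. The next class down, cluster 4, had 236 CPM, and the step from helper T-like cells to it was 2.47-fold (2.13 to 2.87). Plasmacytoid and mature B-like cells did not differ beyond counting error from their neighbours in that order, except that naive T-like cells stood above plasmacytoid cells. Germinal-centre B-like cells, a dividing B cell type seen only as 59 cells at day 0, had 60.1 CPM.

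In macrophage or monocyte-like cells Klf2 had 354 UMIs at day 28, against 511 at day 0, or 61.9 and 220.0 CPM. The ratio of day 28 over day 0 was 0.28 (0.25 to 0.32), the lowest of the 8. In erythroid-like cells it was 8.60 CPM at day 28 and 27.4 CPM at day 0, a ratio of 0.31 (0.19 to 0.50). NK or cytotoxic-like cells had 213 and 654 CPM, a ratio of 0.33 (0.25 to 0.41). Stem or early progenitor-like cells had 42.9 CPM at day 28, against 127 CPM at day 0, a ratio of 0.34 (0.27 to 0.42). These 4 classes, a myeloid, a red cell, a lymphoid and a stem class, thus had near ratios from levels that differ widely.

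Neutrophil progenitor-like cells held 24.7 CPM of Klf2 at day 28 and 64.2 CPM at day 0, a ratio of 0.38 (0.32 to 0.46). Precursor B-like cells held 78.5 and 204 CPM, a ratio of 0.39 (0.32 to 0.47). Plasmacytoid dendritic-like cells had 309 CPM at day 28, against 744 CPM at day 0, a ratio of 0.42 (0.35 to 0.49). Cluster 4 alone stayed within 2-fold, with 158 CPM at day 28 and 236 CPM at day 0, a ratio of 0.67 (0.56 to 0.79). Levels in the 3 classes with too few day 28 cells to compare were 578, 183 and 108 CPM in naive T, mature B and helper T-like cells at day 28, against 944, 702 and 583 CPM at day 0. Of the mature B-like Klf2 UMIs at day 28, 58.8% lay in 1 cell.

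Klf2 was therefore at least 2-fold lower at day 28 in 7 of 8 classes. The share of all measured genes past that fold downward was 1.88% in monocyte-like, 1.38% in neutrophil progenitor-like, 2.64% in erythroid-like, 3.97% in precursor B-like, 5.17% in stem-like and 3.88% in cluster 4 cells. It was larger in the shallower sums, 8.24% in plasmacytoid and 12.3% in NK or cytotoxic-like cells. Without the cells that held at least 2 UMIs of 10 cell cycle genes, a setting chosen after seeing the data, Klf2 was past 2-fold in 4 of the 6 classes that still gave a ratio. Neutrophil progenitor-like cells gave none, with 4 Klf2 UMIs in 16 cells at day 28 and 0 in 7 cells at day 0, and nor did erythroid-like cells, which kept 3 cells at each day. The ratio was 0.62 (0.37 to 1.02) in monocyte-like cells (24 and 38 cells) and 1.05 (0.75 to 1.47) in cluster 4 (63 and 47 cells). It was 0.11 in precursor B-like cells (2 UMIs in 12 cells and 42 UMIs in 34 cells; interval 0.013 to 0.43) and 0.25 in stem-like cells (107 and 84 cells). The count of 2 UMIs was not scaled to depth, so deep cells reached it more readily. The setting therefore does not separate dividing cells from deep ones, and the part of cell division in the Klf2 ratios was not tested.

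Depth and the level of B cell markers also differed between the libraries. Median UMIs per cell within the classes ran from 4914 to 21230 at day 28 and from 3921 to 22636 at day 0. With every cell thinned to 3200 UMIs, a Klf2 UMI was found in 17.1% of monocyte-like cells at day 28 and 46.7% at day 0, in 40.0% and 75.9% of NK or cytotoxic-like cells, in 54.8% and 67.2% of plasmacytoid cells and in 1.04% and 9.92% of erythroid-like cells, the lowest class. Before thinning the monocyte-like shares were 44.7% and 68.9%. In monocyte-like cells 11 of the 11 mature B markers in the table were found at each day, summing to 56.3 CPM at day 28 and 259 CPM at day 0. Their part in the Klf2 ratio was not tested. With the erythroid-like level of the same library subtracted, also a setting added after seeing the data, the Klf2 ratios of the other 7 classes lay between 0.28 and 0.71.

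**Figure D2:**
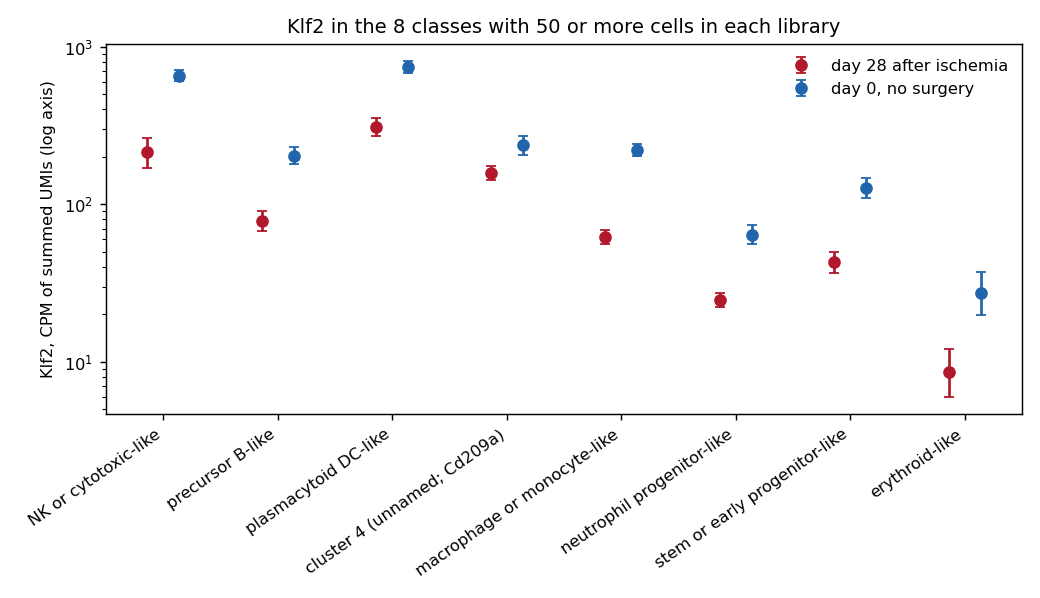
Klf2 level (CPM of summed UMIs, log axis) in the 8 classes compared, with day 28 left of day 0 in each pair; bars are exact 95% Poisson intervals. The day 28 point lies below the day 0 point in each class, and the gap is smallest in cluster 4 (158 against 236 CPM).

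Per thinned cell, the difference lay in cells with several Klf2 UMIs as well as in cells with none. At least 3 Klf2 UMIs were held by 10.4% of plasmacytoid cells at day 28 and 35.8% at day 0, and by 6.15% and 30.3% of NK or cytotoxic-like cells. In monocyte-like cells these shares were 0.463% and 8.49%. Over all kept cells Klf2 had 2050 UMIs at day 28 and 6647 at day 0, or 55.0 and 350.5 CPM. That wider gap also holds the change in cell numbers, since naive T-like cells alone held 1.61% of all Klf2 UMIs at day 28 and 29.9% at day 0.

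S1pr1 (ENSMUSG00000045092, chromosome 3, 115710433 to 115715072) was a lymphocyte gene in both libraries. At day 28 the 12 naive T-like cells held 4 UMIs, the 23 helper T-like cells 6 and the 18 mature B-like cells 3, too few to place. At day 0 S1pr1 stood at 107 CPM in naive T-like cells, 82.1 in helper T-like cells, 72.4 in NK or cytotoxic-like cells and 62.6 in mature B-like cells. Only the step from naive T to helper T-like cells exceeded counting error among these, and the next class, stem or early progenitor-like cells at 10.9 CPM, lay 5.76-fold (3.31 to 10.7) below mature B-like cells.

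NK or cytotoxic-like cells were the one class in which S1pr1 could be compared. It had 24 UMIs at day 28 and 67 at day 0, or 63.1 and 72.4 CPM, a ratio of 0.87 (0.52 to 1.41). Klf2 in the same cells had a ratio of 0.33, and the intervals of both ratios do not overlap. In thinned cells a S1pr1 UMI was found in 18.5% of this class at day 28 and 22.1% at day 0. In erythroid-like cells, where no S1pr1 should be made, the shares were 0% and 1.65%, at median depths of 18159 and 9657 UMIs before thinning. A count of 0 among 192 thinned cells allows up to 1.56% of such cells to hold a UMI at that depth. Before thinning, 1.56% of erythroid-like cells at day 28 and 7.38% at day 0 held one.

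S1pr1 was found more often in lymphocytes with a Klf2 UMI than in those without one in each of the 5 sets of cells compared, and in naive T-like cells the intervals do not overlap. Among thinned naive T-like cells at day 0, S1pr1 was found in 109 of 349 cells with Klf2 (31.2%, 26.4 to 36.4) and in 12 of 82 cells without it (14.6%, 7.80 to 24.2). In NK or cytotoxic-like cells the shares were 26.9% with Klf2 and 12.8% without it at day 28, and 25% and 12.8% at day 0. Helper T-like cells at day 0 had 25.5% and 15.1%. In mature B-like cells at day 0 the shares were 20.7% and 18.2%. The intervals of these other sets overlap, and the cells of a set share 1 library.

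Ccr7 (ENSMUSG00000037944, chromosome 11, 99144196 to 99155077) was also highest in lymphocytes among the larger classes. NK or cytotoxic-like cells had 12 UMIs at day 28 (31.6 CPM) against 79 UMIs (85.4 CPM) at day 0, a ratio of 0.37 (0.18 to 0.68). Precursor B-like cells had 18.3 CPM at day 28 and 39.0 CPM at day 0, a ratio of 0.47 (0.31 to 0.71). Plasmacytoid cells, with 16 and 11 UMIs, had a ratio of 1.27 (0.55 to 3.03). Under the settings tried, the ratio stayed below 1 in both lymphoid classes, up to 0.41 in NK or cytotoxic-like cells and up to 0.53 in precursor B-like cells, which is inside 2-fold. In plasmacytoid cells it crossed 1, with 0.81 after thinning. Among the classes of day 0, mature B-like cells had 264 CPM and naive T-like cells 256 CPM, which did not differ beyond counting error, and helper T-like cells had 193 CPM.

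The highest Ccr7 level of all lay in cluster 20, a group of 6 cells at day 28 and 7 at day 0 led by Ccl5, Fscn1, Ccl22 and Cxcl16. It held 55 UMIs at day 28 and 80 at day 0, or 1128 CPM (849.6 to 1468) and 1349 CPM (1069.97 to 1679). Those 6 cells carried 22.5% of all Ccr7 UMIs of the day 28 library. Within cluster 20, the cell with the most Ccr7 UMIs held 45.5% of them at day 28 and 33.75% at day 0. In thinned erythroid-like cells Ccr7 was found in 0% at day 28 and 1.65% at day 0, against 49.9% of naive T-like and 48.1% of mature B-like cells at day 0. Monocyte-like cells had 1.75 CPM at day 28 and 10.8 CPM at day 0, found in 0.231% and 1.89% of thinned cells, near the erythroid-like shares, so that level is read as background.

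Ccr9 (ENSMUSG00000029530, chromosome 9, 123678439 to 123784330) was the most restricted of the receptors. Plasmacytoid dendritic-like cells, the interferon-making dendritic type, had 412 UMIs at day 28 and 366 at day 0, or 558 and 567 CPM. The ratio was 0.98 (0.85 to 1.14), so that a change larger than this interval was not seen, in the class where the Klf2 ratio was 0.42. This class held 82.2% of all Ccr9 UMIs at day 28 and 82.2% at day 0. Among classes with at least 50 cells it stood 33.6-fold above the next class at day 28 and 36.9-fold at day 0, cluster 4 in both, which had 16.6 and 15.4 CPM. In thinned cells Ccr9 was found in 77.0% of plasmacytoid cells at day 28 and 75.2% at day 0, against 1.04% and 0% of erythroid-like cells.

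Naive T-like cells at day 0 had 13.8 CPM of Ccr9 from 29 UMIs, found in 4.18% of thinned cells. NK or cytotoxic-like cells had 0 UMIs at both days, which allows up to 7.89 CPM at day 28 and 3.24 CPM at day 0.

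Ccr2 (ENSMUSG00000049103, chromosome 9, 124101950 to 124113557), the receptor by which monocytes leave marrow, was highest in macrophage or monocyte-like cells. These had 1863 UMIs at day 28 and 967 at day 0, or 326 and 416 CPM, a ratio of 0.78 (0.72 to 0.85). Cluster 4 had 300.5 CPM of Ccr2 at day 28, against 306 CPM at day 0, a ratio of 0.98 (0.85 to 1.13). Monocyte-like cells and cluster 4 did not differ beyond counting error at day 28, while at day 0 monocyte-like cells stood 1.36-fold higher (1.19 to 1.56). Plasmacytoid cells had 119 CPM at day 28, against 178 CPM at day 0, a ratio of 0.67 (0.50 to 0.89). The other 3 classes had ratios of 1.08 to 1.54 with intervals that include 1, and no class passed 2-fold.

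The progenitor and myeloid clusters differed widely in Ccr2 in both libraries. Cluster 5, led by Elane, Ctsg, Prtn3 and S100a8, had 7.78 CPM at day 28 and 12.3 CPM at day 0. Cluster 2, which shares granule genes with it and also has F13a1 and Ly6c2 among its leading genes, had 889 UMIs at day 28 (an interval of 93.5 to 106.8 CPM) and 170 UMIs at day 0 (73.1 to 99.3 CPM). The neutrophil progenitor-like class therefore holds 2 clusters of unlike Ccr2. In thinned cells Ccr2 was found in 64.1% of monocyte-like cells at day 28 and 74.1% at day 0, and in 1.56% and 0% of erythroid-like cells.

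Within NK or cytotoxic-like cells, the Ccr2 level was higher in cells without Cd3 UMIs, the feature of NK cells rather than T cells. These cells held 29 Ccr2 UMIs at day 28, against 9 in cells with a Cd3 UMI, and 20 at day 0, against 40. The 13 such cells at day 28 had 324 CPM (217 to 466) and the 17 at day 0 had 282 CPM (172 to 436). Cells with a Cd3 UMI had 30.9 CPM at day 28 (52 cells) and 46.8 CPM at day 0 (200 cells). Klf2 was lower in the cells without Cd3, with 78.3 CPM against 254 CPM in the cells with it at day 28, and 268 CPM against 686 CPM at day 0. A missing Cd3 UMI can also be a matter of depth in a single cell.

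**Figure D3:**
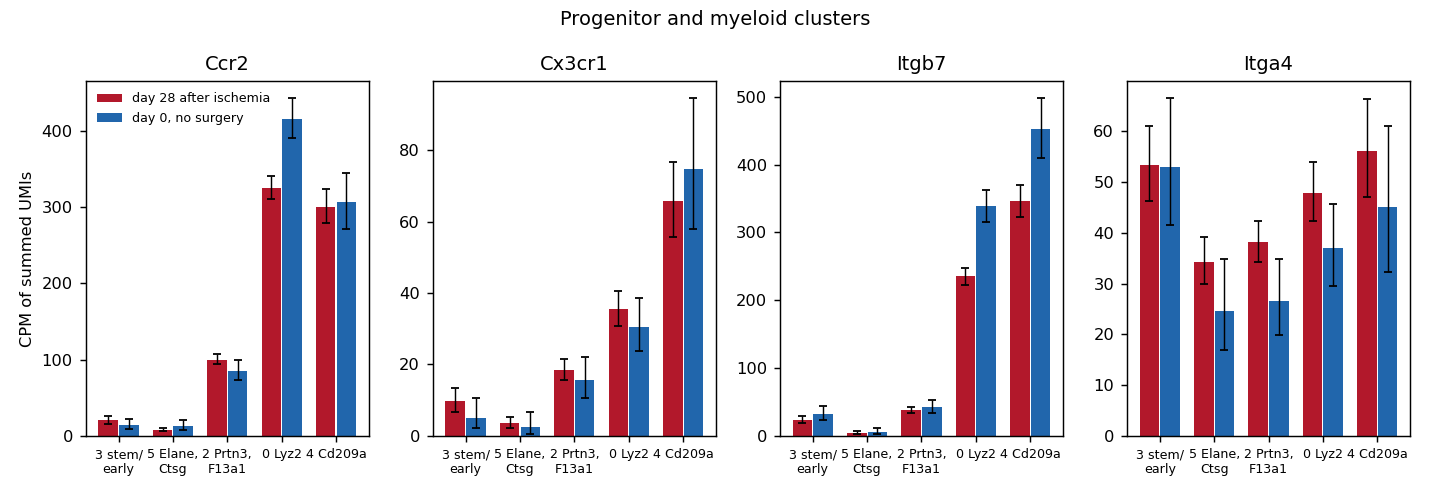
Ccr2, Cx3cr1, Itgb7 and Itga4 (CPM of summed UMIs) in 5 progenitor and myeloid clusters, day 28 left of day 0; bars start at 0 and whiskers are exact 95% Poisson intervals. Ccr2 and Itgb7 are low in clusters 3 and 5 and high in clusters 0 and 4, and Cx3cr1 is highest in cluster 4. Itga4 varies least of the 4 genes, from 34.3 to 56.1 CPM at day 28 and from 24.7 to 53.0 CPM at day 0.

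Cx3cr1 (ENSMUSG00000052336, chromosome 9, 119901616 to 120069879), the fractalkine receptor of monocytes and some dendritic cells, followed the same cells in another order. Cluster 4 had 65.7 CPM at day 28 and 74.7 CPM at day 0, a ratio of 0.88 (0.66 to 1.19). It stood 1.85-fold (1.49 to 2.29) above monocyte-like cells at day 28 and 2.44-fold (1.73 to 3.46) at day 0. Monocyte-like cells had 35.5 CPM at day 28 and 30.6 CPM at day 0, a ratio of 1.16 (0.88 to 1.54), and neutrophil progenitor-like cells 12.04 and 10.3 CPM, a ratio of 1.16 (0.80 to 1.73). No Cx3cr1 UMI was found in NK or cytotoxic-like cells at either day, nor in naive T or mature B-like cells at either day. At day 0 a count of 0 allows up to 1.42 CPM in naive T-like cells.

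Cxcr4 (ENSMUSG00000045382, chromosome 1, 128588199 to 128592293), the receptor that holds cells in marrow, was spread over most classes and was one of the members with ratios above 1. Plasmacytoid cells had 28 UMIs at day 28 and 11 at day 0, or 37.9 and 17.04 CPM, a ratio of 2.23 (1.07 to 4.95). Cluster 4 had 78 UMIs and 14 UMIs, or 32.4 and 15.4 CPM, a ratio of 2.11 (1.18 to 4.03). Neutrophil progenitor-like cells had 24.6 CPM at day 28, against 16.7 CPM at day 0, a ratio of 1.47 (1.11 to 1.99). Of their 2 clusters, cluster 2 had 31.6 CPM at day 28, against 17.1 CPM at day 0, a ratio of 1.85 (1.29 to 2.72), and cluster 5 had 15.1 and 16.2 CPM, a ratio of 0.93 (0.58 to 1.57). Of 7 classes in which Cxcr4 was measured, 6 had a ratio above 1 and only precursor B-like cells lay below it, with 37.8 CPM at day 28 and 63.8 CPM at day 0, a ratio of 0.59 (0.44 to 0.81).

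The 2 classes past 2-fold rest on few UMIs at day 0 and depend on how cells are grouped. With doublets kept, the plasmacytoid ratio was 1.71. With cells gated by marker genes in place of clusters, that of cluster 4 was 0.57. That gate took in 157 cells at day 28 and 652 at day 0, against the 251 and 101 of the cluster. Within precursor B-like cells, cluster 10 had 46.7 CPM of Cxcr4 at day 28 and 85.5 CPM at day 0, a ratio of 0.55 (0.38 to 0.78), and cluster 12 had 26.6 and 22.0 CPM, a ratio of 1.21 (0.57 to 2.79). At day 0 mature B-like cells had 78.1 CPM of Cxcr4 and germinal-centre B-like cells 60.1 CPM, not different beyond counting error from precursor B-like cells.

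Itgb7 (ENSMUSG00000001281, chromosome 15, 102215995 to 102231944) lay below its day 0 level in each of the 6 classes where it was measured. Plasmacytoid cells had 62 UMIs at day 28 and 130 at day 0, or 84.0 and 201 CPM, a ratio of 0.42 (0.30 to 0.57), the one past 2-fold. Monocyte-like cells had 235 CPM at day 28, against 338 CPM at day 0, a ratio of 0.70 (0.64 to 0.76). Cluster 4, where Itgb7 was highest at both days, had 346 and 453 CPM, a ratio of 0.76 (0.68 to 0.86). The ratios of neutrophil progenitor-like, stem-like and NK or cytotoxic-like cells, 0.84, 0.71 and 0.74, had intervals that include 1. The 23 helper T-like cells of day 28 had 42 UMIs of Itgb7, or 190 CPM (137 to 256), against 229 CPM at day 0, when naive T-like cells had 187 CPM. In thinned cells Itgb7 was found in 20% of plasmacytoid cells at day 28 and 43.8% at day 0, and in 2.60% and 1.65% of erythroid-like cells.

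Itga4 (ENSMUSG00000027009, chromosome 2, 79255426 to 79333123), the alpha chain that can pair with Itgb7, had the flattest distribution and mostly ratios above 1. Erythroid-like cells, in which it serves contact with marrow macrophages, had 110.0 CPM at day 28 and 96.4 CPM at day 0, a ratio of 1.14 (0.95 to 1.38). They led the order of classes with at least 50 cells at both days, but not beyond counting error over the next class. Plasmacytoid cells had 63 UMIs at day 28 and 23 at day 0, or 85.3 and 35.6 CPM, a ratio of 2.39 (1.46 to 4.05). It stayed at 2.08 or more under every setting that gave a value. Neutrophil progenitor-like cells had 36.5 CPM at day 28 and 25.9 CPM at day 0, a ratio of 1.41 (1.12 to 1.80), and monocyte-like cells 47.9 and 37.0 CPM, a ratio of 1.29 (1.01 to 1.67). Precursor B-like cells, with 58.6 CPM at day 28 and 76.6 CPM at day 0, were the only one of 8 classes below 1, at 0.765 (0.588 to 0.998). Of their 2 clusters, cluster 12 had 52.3 CPM at day 28, against 92.5 CPM at day 0, a ratio of 0.57 (0.37 to 0.87), and cluster 10 had 63.6 and 68.4 CPM, a ratio of 0.93 (0.66 to 1.32).

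The integrin chains thus stood at opposite ratios in plasmacytoid cells, 2.39 for Itga4 and 0.42 for Itgb7, beside 0.98 for Ccr9. In most clusters, the intervals for finding Itgb7 in thinned cells with Itga4 and in those without it overlapped. Among thinned monocyte-like cells at day 28, Itgb7 was found in 71.2% of cells with Itga4 (58.7 to 81.7) and 49.7% of cells without it (44.5 to 55.0), intervals that do not overlap. At day 0 the same shares were 68.8% and 67.2%. In plasmacytoid cells they were 14.3% and 21.5% at day 28, and 41.7% and 44.0% at day 0. In cluster 4 they were 50% and 60.5% at day 28, and 86.7% and 73.5% at day 0.

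**Figure D4:**
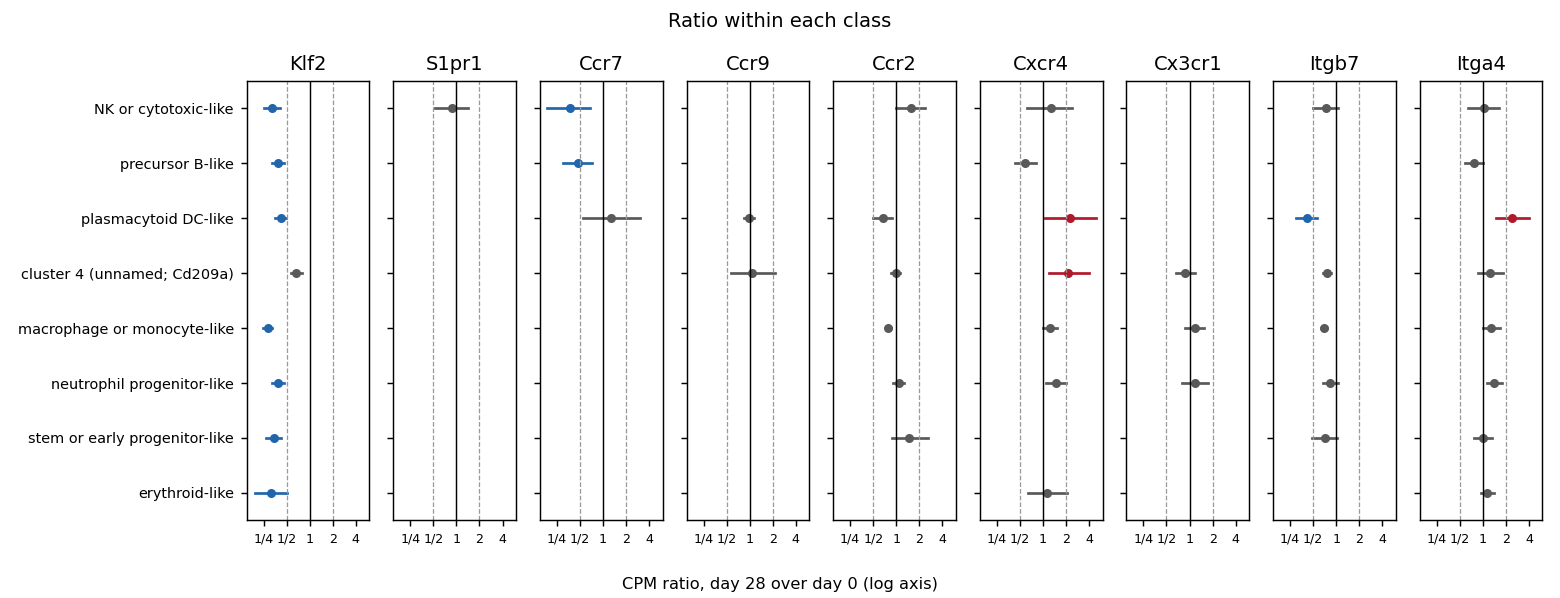
Ratio of CPM at day 28 over day 0 (log axis) for each member in each class where its mean reached 10 CPM; points are ratios, lines their 95% conditional binomial intervals, and dashed lines mark 2-fold. Blue marks ratios at or under 0.5, red those at or over 2. Klf2 lies left of 1 in all 8 classes, Itgb7 in all 6, and Cxcr4 and Itga4 mostly to the right.

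Across all 9 genes, 44 pairs of member and class reached the minimum of 10 CPM. Of these, 10 were at least 2-fold lower at day 28, 7 of them Klf2, 2 Ccr7 and 1 Itgb7, and 3 at least 2-fold higher, 2 of them Cxcr4 and 1 Itga4. The upward share of all genes was 3.57% in plasmacytoid cells and 1.5% in cluster 4, where the upward pairs lay. In the other classes it was 0.383% in neutrophil progenitor-like, 0.458% in monocyte-like, 0.763% in stem-like, 1.09% in precursor B-like, 2.66% in erythroid-like and 6.46% in NK or cytotoxic-like cells. In NK or cytotoxic-like cells 2 of 7 members were past 2-fold downward, Klf2 and Ccr7, and in plasmacytoid cells 2 of 7, Klf2 and Itgb7. The downward share of all genes was 12.3% in NK or cytotoxic-like cells and 8.24% in plasmacytoid cells. The members' median log2 ratio was -0.93 in precursor B-like cells over 4 members, beside -0.20 over all genes there. It lay between -0.24 and 0.17 in the other 7 classes.

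Most thinned cells that held a UMI of any chemokine receptor held only 1 receptor. Many held none, as did 73.2% of neutrophil progenitor-like cells at day 28. Thinning lowers such joint finding: Cxcr4 was found in 45.8% of monocyte-like cells at day 28 before it and 16.9% after it. In thinned plasmacytoid cells, 28.9% at day 28 and 28.5% at day 0 held UMIs of at least 2 of the 5 receptors, against 0.521% and 0% of erythroid-like cells. Monocyte-like cells held 18.5% and 18.4%. Ccr2 was found in 31 of 49 monocyte-like cells with Cx3cr1 at day 28 (63.3%) and in 20 of 22 at day 0 (90.9%). Over all thinned monocyte-like cells, with or without Cx3cr1, it was found in 64.1% at day 28 and 74.1% at day 0. In plasmacytoid cells at day 28, Ccr9 was found in 78.1% of cells with Ccr2 and 76.7% of cells without it, and at day 0 in 67.4% and 78.7%.

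**Figure D5:**
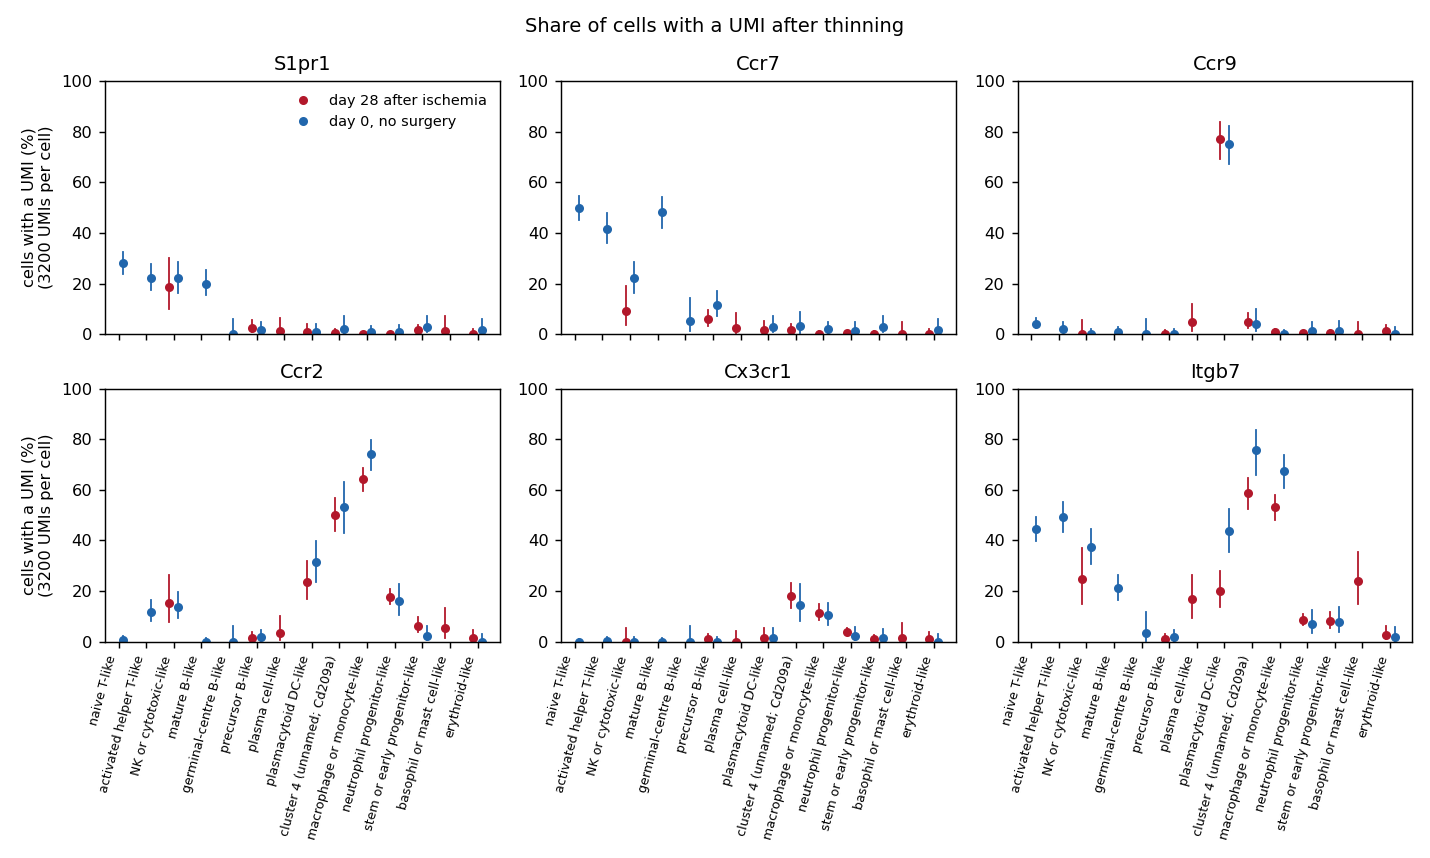
Share of cells with at least 1 UMI after thinning each cell to 3200 UMIs, for 6 members in classes with at least 50 thinned cells, day 28 left of day 0; lines are 95% Clopper-Pearson intervals. For the members shown, the erythroid-like cells at the right stay at or under 2.60%. Ccr9 reaches 77.0% in plasmacytoid cells and Ccr2 74.1% in monocyte-like cells. Erythroid-like shares were higher for the other members, up to 9.92% for Klf2, 4.96% for Cxcr4 and 33.9% for Itga4.

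Over the 28 sums of a cluster and library with at least 30 cells, the members fell into groups by Pearson correlation of log2(CPM + 10). The sums share library, depth and cell makeup, so these are descriptions. S1pr1 was most like Ccr7 among the members (r = 0.87), and Klf2 was near both (0.72 and 0.79). Ccr2 went with Cx3cr1 (0.80) and Itgb7 (0.77). Klf2 with Itgb7 had 0.60, and Itga4 was near 0 with Itgb7 (-0.19) and Klf2 (-0.08).

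Among 2657 other genes, the closest to Klf2 were H2-D1 (r = 0.92), an MHC class I heavy chain, and Btg1 (0.89), a brake on proliferation. H2-D1 was below 1 in all 8 classes but past 2-fold in none, with ratios of 0.56 to 0.80, and Btg1 had 0.59 to 1.37. Closest to S1pr1 were Gimap3 (0.95) and Gimap4 (0.91), GTPases of lymphocyte survival, and closest to Ccr7 Gm8369 (0.93) and Ablim1 (0.88). In the classes where they reached a mean of 10 CPM, Gm8369 was at least 2-fold lower in 4 of 5 (0.25 to 1.26), Gimap4 in 1 of 3 (0.39 to 0.74), Ablim1 in 1 of 5 (0.26 to 1.07) and Gimap3 in 0 of 2 (0.54 and 1.64). In NK or cytotoxic-like cells Gm8369 had 68.4 CPM at day 28, against 137 CPM at day 0, Gimap4 263 and 355 CPM, Gimap3 131 and 245 CPM, and Ablim1 92.0 and 145.9 CPM. Ccr9 had Klk1b27 (0.98) and D13Ertd608e (0.97). Ccr2 had S100a6 (0.90) and Lgals3 (0.89), Cx3cr1 had Aif1 (0.92) and Ms4a6c (0.91), and Itgb7 had Anxa6 (0.91) and Fos (0.88). Anxa6 was at least 2-fold lower in 2 of 7 measured classes (0.44 to 0.90) and Fos in 3 of 8 (0.41 to 0.99). Cxcr4 and Itga4 had no gene above 0.72.

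Other genes of leukocyte homing were read from 7 lists of chemokine receptors, sphingosine 1-phosphate genes, integrins and selectins, Klf factors, residency genes, signalling genes and ligands. Of 99 listed genes in the table, 32 to 55 reached 10 CPM in a class, and over the 8 classes 14 of 373 pairs of gene and class (3.75%) were at least 2-fold lower at day 28 and 8 (2.14%) at least 2-fold higher. Over all genes and the same classes the shares were 4.86% and 2.035%. Their median log2 ratio lay between -0.42 in precursor B-like cells and 0.01 in plasmacytoid cells, beside -0.20 and -0.15 over all genes. In NK or cytotoxic-like cells Cxcr3, a receptor of interferon-induced chemokines, had 23.7 CPM at day 28, against 76.7 CPM at day 0, and Cxcr6, a receptor of resident T cells, 15.8 and 41.1 CPM. Klf3, a relative of Klf2 that acts mostly as a repressor, had 28.9 CPM at day 28 and 82.2 CPM at day 0 there. Plasmacytoid cells had 23.03 CPM of Cxcr3 at day 28 and 58.9 CPM at day 0.

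In precursor B-like cells Klf4 had 19.1 CPM at day 28 and 41.3 CPM at day 0, and Klf13 had 85.3 and 182 CPM. Cd69, whose protein pulls S1pr1 from the cell surface, had 105 CPM at day 28 and 229 CPM at day 0 in these cells, a ratio of 0.46 (0.39 to 0.55). Among the highest and lowest ratios of the lists in cluster 4, Klf6 had 178 CPM at day 28, against 72.5 CPM at day 0. Ahr had 44.9 and 14.3 CPM there, and Ccr1 had 7.48 and 19.8 CPM. Of the list of Klf factors and quiescence regulators, 2 of 10 measured genes were past 2-fold downward in precursor B-like cells, and 0 of 8 in monocyte-like cells. The downward share of all genes was 3.97% and 1.88% in these classes, so counts over so few genes do not set Klf2 apart from the list. In monocyte-like cells Klf4 had 259 CPM at day 28 and 388 CPM at day 0, a ratio of 0.67 (0.61 to 0.73).

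Of the receptors' ligands, Cxcl12 had over all cells 37 UMIs at day 28 and 180 at day 0 (0.992 and 9.49 CPM), and was among the leading genes of the fibroblast-like cluster, which had 4 and 12 cells. Ccl2, the ligand of Ccr2, had 821 and 536 UMIs (22.0 and 28.3 CPM). Cx3cl1 had 2 UMIs in each library. Madcam1 had 2 UMIs at day 28 and 0 at day 0.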

How the data were processed

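Gene counts per cell barcode were deposited by the authors as whole UMI counts, made with Cell Ranger 2.1.1 and STAR (version not stated) on mm10 per the submitters' processing notes. The 9 members and all gene lists were chosen with earlier results of these data known. Barcodes with under 500 genes or over 10% mitochondrial UMIs were left out (17 at day 28 and 2 at day 0). Scrublet's automatic threshold marked only 0.303% and 0.150% of barcodes, so the highest scores, at 0.8% per 1000 barcodes, were removed instead (56 and 57). Cells of both libraries were clustered together in Scanpy 1.11.5 with leidenalg 0.10.2 (2000 variable genes without the 9 members, 30 principal components, 20 neighbours, resolution 0.8), and clusters were named from 22 marker lists. Rebuilt names may differ from the study's.

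UMIs were summed per class and library. Genes with a mean of at least 10 CPM in a class of at least 50 cells per library were compared, and at least 2-fold was counted as past the threshold. Levels have exact Poisson, shares Clopper-Pearson and ratios conditional binomial intervals at 95%, which cover counting error only, and a count of 0 is given as up to 3 UMIs. Shares of cells were taken after thinning to 3200 UMIs, and shallower cells (0 at day 28, 225 at day 0) did not enter them. The interval code was tested on simulated data. Besides the members, the text names, for each homing list and class, up to the 2 highest and 2 lowest ratios, and the 2 genes most correlated with each member (mean of at least 20 CPM, 1 sum of at least 100 CPM). Promoters came from the RefSeq table, which held 7 of the 9 members; S1pr1 and Ccr7 had no entry.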

Additional observations from a re-analysis of the deposited data

Results flagged for a closer look

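Cxcr4 moved in opposite directions in plasmacytoid dendritic-like and precursor B-like cells, with day 28 over day 0 ratios of 2.23 and 0.592 whose intervals lie on opposite sides of 1. The low value lay in cluster 10 of the precursor B-like cells, at 0.55 (0.38 to 0.78), while cluster 12 had 1.21 (0.57 to 2.79). Itga4 did likewise, with 2.39 in plasmacytoid cells and 0.765 in precursor B-like cells, where cluster 12 had 0.57 (0.37 to 0.87) and cluster 10 had 0.93 (0.66 to 1.32). In both cases the difference between the classes was not tested, since each rests on 1 library per day.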

How the results depend on the processing

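No paired analysis was possible because each group had 1 library, and for the same reason no replicate could be left out. Of the member ratios recomputed under the alternatives, 554 stayed within the counting interval of the reported ratio, 44 moved outside it, and 1 reversed: Cxcr4 in cluster 4 was 0.569 under the marker gate. The cause was not tested, but that gate holds 157 cells at day 28 and 652 at day 0, against 251 and 101. Pairs of member and class at least 2-fold lower numbered 9 to 11 under the settings that change the cells or the scale, but 21 with no minimum level and 7 with a minimum of 50 CPM. Pairs at least 2-fold higher numbered 3, against 1 with doublets kept, 6 in thinned cells, 5 without the cells past the cell cycle UMI count, 7 with no minimum and 1 at 50 CPM. Without the cells past that count, which was not scaled to depth, Klf2 was at least 2-fold lower in 4 of 6 classes with a ratio, in place of 7 of 8. Pairs of other homing gene and class at least 2-fold lower numbered 14, against 64 with no minimum level, 5 with a minimum of 50 CPM, 7 when centred on the median of all genes and 30 in thinned cells. Those at least 2-fold higher numbered 8, against 30 with no minimum, 1 at 50 CPM and 15 in thinned cells. Thinning has its own scatter: with another seed the Itgb7 share of cluster 4 at day 28 was 66.9% in place of 58.6%. Depth limits single pairs: at day 28 S1pr1 in NK or cytotoxic-like cells rests on 24 UMIs and Ccr7 on 12, and at day 0 Cxcr4 in plasmacytoid cells on 11. Other minimum levels for the members, leaving out shared barcodes or cells past the cell cycle UMI count, and subtracting the erythroid-like level were chosen after seeing the data.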

Other observations

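Small groups of cells outside the comparisons carried members at high levels. Cluster 17, led by Apoe and Mzb1, held 16 cells at day 28 and 28 at day 0. Its Klf2 level was 324 CPM at day 28 (interval 227 to 448), against 295 CPM at day 0 (219 to 389). The cell with the most Klf2 UMIs held 41.7% of them at day 28 and 24% at day 0. The intervals cover counting error only and do not reflect this. The Ccr7 level of cluster 17 was 135 CPM at day 28 (75.5 to 222), against 248 CPM at day 0 (179 to 335). Activated helper T-like cells, 23 at day 28 and 291 at day 0, had 113 CPM of Itga4 (73.1 to 167) at day 28, against 52.5 CPM (42.1 to 64.8) at day 0. Basophil or mast-like cells had 67.1 CPM of Itgb7 (50.1 to 88.01) at day 28, against 125 CPM (89.1 to 169.9) at day 0.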
